A study of Mus musculus with 4 samples.

Results

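The 10 genes described here encode proteins of the PIWI-interacting RNA (piRNA) pathway and were taken by symbol from the 40999 features of the deposited tables: Piwil2, Piwil4, Gtsf1, Mov10l1, Asz1, Mael, Tdrd1, Tdrd5, Tdrd9 and Tdrd12. All 10 were present in the tables of all 4 libraries. The libraries were made from total RNA of wild-type C57BL/6J mouse embryonic gonads collected daily from E11.5 to E14.5, with XX and XY gonads mixed in equal numbers and at least 6 embryos at each time point. At E11.5 the mesonephros was left on the gonad, and from E12.5 on it was dissected away. Each time point is 1 library from 1 pool, so no difference below has a replicate check, male and female gonads cannot be told apart, and the step from E11.5 to E12.5 cannot be told apart from the change in dissection. In a bulk pool, more germ cells and more RNA per germ cell cannot be told apart either.

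piRNAs are small RNAs of the germline that guide PIWI proteins to transposon transcripts and, in the nucleus of fetal male germ cells, to transposon loci that then acquire DNA methylation. They are cut from long precursors and amplified in nuage, the perinuclear and intermitochondrial granules of germ cells, where Tudor domain proteins bind the methylated arginines of PIWI proteins. In the mouse, loss of these genes typically derepresses LINE1 and IAP elements and arrests spermatogenesis.

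Between E11.5 and E12.5, 8 of the 10 genes rose at least 2-fold, from 2.86-fold for Tdrd1 to 54.8-fold for Mael, while Tdrd9 stayed at 31 counts in both libraries and Gtsf1 was at or below 3 counts in both. Between E12.5 and E13.5 none of the 9 genes tested reached 2-fold. Between E13.5 and E14.5, 6 of 10 rose relative to the median gene, led by Gtsf1 (20.6-fold), Piwil4 (6.67-fold) and Tdrd9 (4.86-fold). Gtsf1, Piwil4 and Tdrd9 were also higher in raw counts, in TPM and relative to Piwil2 within a library. Mael, Tdrd1 and Tdrd5 were higher relative to Piwil2 too, but lower in TPM, and Tdrd5 was also lower in raw counts. Piwil2, Asz1, Mov10l1 and Tdrd12 had their main step at E12.5 and did not reach 2-fold at E14.5.

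Deduplicated counts summed to between 25593453 and 31752562 per library, and 3 counts, taken as the floor for a count of 0, were 0.0945 to 0.117 CPM. Levels are given as counts, as CPM after TMM scaling over the 4 libraries, and as the deposited TPM where genes are compared with each other, since TPM is per exon length. Log2 fold changes compare the later with the earlier library after TMM scaling of the pair, and carry an exact Clopper-Pearson 95% interval that covers counting error only. A gene is said to have risen or fallen when the change was at least 2-fold, and for all other changes only the values are given. Among all genes tested, 8.64% were at least 2-fold higher and 9.11% at least 2-fold lower at E12.5 than at E11.5. The shares were 3.28% and 1.98% at E13.5 against E12.5, 6.44% and 2.51% at E14.5 against E13.5, and 8.44% and 3.33% at E14.5 against E12.5. The median gene lay within 0.01 of 0 on the log2 scale in the 4 comparisons after TMM scaling. At E14.5 against E13.5 it lay at −1.07 in shares of total counts and at −1.63 in TPM, so changes at E14.5 are relative to the median gene. Among 15 housekeeping genes, 0 reached 2-fold in any consecutive comparison, and their medians were 0.01, −0.04 and −0.01 on the log2 scale.

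The 10 genes lie on 8 chromosomes of mm10. Mael (166201385 to 166238744) and Tdrd5 (156255296 to 156304860) are on chromosome 1, and Mov10l1 (88982891 to 89055152) and Gtsf1 (103402458 to 103430457) on chromosome 15. Asz1 is on chromosome 6 (18050964 to 18109061), Tdrd12 on chromosome 7 (35493610 to 35537744), Piwil4 on chromosome 9 (14701782 to 14740797), Tdrd9 on chromosome 12 (111971401 to 112068854), Piwil2 on chromosome 14 (70372477 to 70436916) and Tdrd1 on chromosome 19 (56826171 to 56870012). All are protein-coding in GENCODE M21, and counts are of reads on their exons. No other listed feature overlapped a member on the same strand, and of 4 on the opposite strand 1 shared an exon base, LOC102637971 with Piwil4, by a single base. The counted model of Tdrd12 held 37.4% of the GENCODE exon bases of that gene (1621 of 4338 bases), that of Tdrd5 54.5%, that of Asz1 61.5% and that of Piwil4 65.0%. The others held 73.4% to 100%. TPM of these 4 genes therefore describes the counted part of the gene.

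RefSeq start sites on GRCm38.p6 gave a promoter window for 9 of the 10 genes, from 250 bases before to 50 bases after the start. DNA methylation of CpG-rich promoters is a known means of keeping germline genes silent in somatic cells, so the number of CpG dinucleotides in each window was counted. The 9 windows, 1 per gene, held a median of 17 CpGs, from 9 in Tdrd12 to 48 in Tdrd5. All 32841 RefSeq windows, from 27018 symbols, had a median of 7 and an upper quartile of 20. Tdrd1 had 3 RefSeq windows and Tdrd12 and Piwil4 had 2 each, of which 1 is described. Mael, Mov10l1 and Tdrd1 held 24, 20 and 20 CpGs, Asz1 17, Gtsf1 13, Piwil4 11 and Tdrd9 10. The ratio of observed to expected CpGs had a median of 0.674 over the members and 0.384 over all windows. The bases before the start are printed for Mael, which had the largest rise at E12.5, and for Gtsf1 and Piwil4, which had the largest at E14.5. They lie at chr1:166238745-166238994, chr15:103430428-103430677 and chr9:14740673-14740922 on the minus strand of GRCm38.p6, read 5′ to 3′ towards the gene, with each CpG in capitals.
Mael: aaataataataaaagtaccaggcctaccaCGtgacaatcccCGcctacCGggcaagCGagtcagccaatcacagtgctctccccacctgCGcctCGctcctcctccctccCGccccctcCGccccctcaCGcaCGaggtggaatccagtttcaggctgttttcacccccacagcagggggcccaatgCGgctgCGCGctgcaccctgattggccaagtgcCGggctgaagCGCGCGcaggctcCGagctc
Gtsf1: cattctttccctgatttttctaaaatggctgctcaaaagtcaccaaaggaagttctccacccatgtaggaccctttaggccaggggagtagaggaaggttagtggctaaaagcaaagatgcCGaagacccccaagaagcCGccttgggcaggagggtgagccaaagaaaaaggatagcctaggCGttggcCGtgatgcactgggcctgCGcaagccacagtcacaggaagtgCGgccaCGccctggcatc
Piwil4: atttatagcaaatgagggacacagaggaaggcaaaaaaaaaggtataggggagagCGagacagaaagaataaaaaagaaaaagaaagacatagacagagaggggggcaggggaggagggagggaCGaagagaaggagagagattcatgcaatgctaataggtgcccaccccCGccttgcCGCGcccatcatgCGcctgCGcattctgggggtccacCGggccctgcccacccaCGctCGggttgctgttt
In these 250 bases Mael has 18 CpGs, Gtsf1 7 and Piwil4 10. The counted models of Piwil4 (to 14740797) and Gtsf1 (to 103430457) reach into these stretches. Those of Mov10l1, Tdrd1 and Tdrd9 begin within the 250 bases before the RefSeq start, and that of Tdrd5 (to 156304860) spans its whole window. For all of these genes the bases lie before a RefSeq start but partly or wholly inside the span of the counted gene. The E-box CACGTG, which is its own reverse complement, was in the 300-base window of Mael, Mov10l1, Tdrd1 and Tdrd9 (4 of 9) and in 7.15% of all windows. On either strand, GCGGGAA, a core of E2F motifs, was in 1 of 9 (Tdrd5) and in 4.60% of all windows, AACNGTT, a MYB motif, in 0 of 9 and 4.45%, and TATAAA in 1 of 9 (Piwil4) and 13.6%. These are matches of letters only.

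Piwil2 encodes MILI, a slicing PIWI protein that makes piRNAs from the fetal stages on. In order of time it had 99, 778, 1061 and 648 counts, or 2.89, 24.8, 26.8 and 34.4 scaled CPM. Its log2 fold change was 3.10 (2.80 to 3.42) at E12.5 against E11.5, then 0.11 (−0.02 to 0.25) and 0.38 (0.24 to 0.52). Piwil2 thus had its step at E12.5, and only 1.21% of tested genes had as large a fold change there.

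Piwil4 encodes MIWI2, the nuclear PIWI protein of fetal male germ cells that receives its piRNAs from the MILI cycle. Its counts were 3, 21, 41 and 129 in order of time, or 0.0876, 0.670, 1.04 and 6.86 scaled CPM. The ratio to E11.5 was 7.37-fold at E12.5, with a wide interval from 3 counts (log2 2.88, 1.19 to 5.32). At E13.5 the log2 fold change was 0.63 (−0.16 to 1.46), so the counts do not resolve a difference. At E14.5 it was 2.74 (2.23 to 3.29), and 0.758% of the tested genes had as large a change. In contrast to Piwil2, most of the Piwil4 reads were in the last library.

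Gtsf1 encodes a small CHHC zinc finger protein that binds PIWI proteins and speeds their slicing. It had 0, 3, 5 and 50 counts, and 2.66 scaled CPM at E14.5 against 0.126 at E13.5. No fold is given between E11.5 and E12.5, where both libraries were at or below 3 counts. Its rise at E14.5 was 20.6-fold (log2 4.37, 3.09 to 6.10), the 38th largest of 18992 genes tested. In TPM it was listed at 0, 0.173 and 0.250 in the earlier libraries and at 1.71 in the last, so that E14.5 stood apart.

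**Figure D1:**
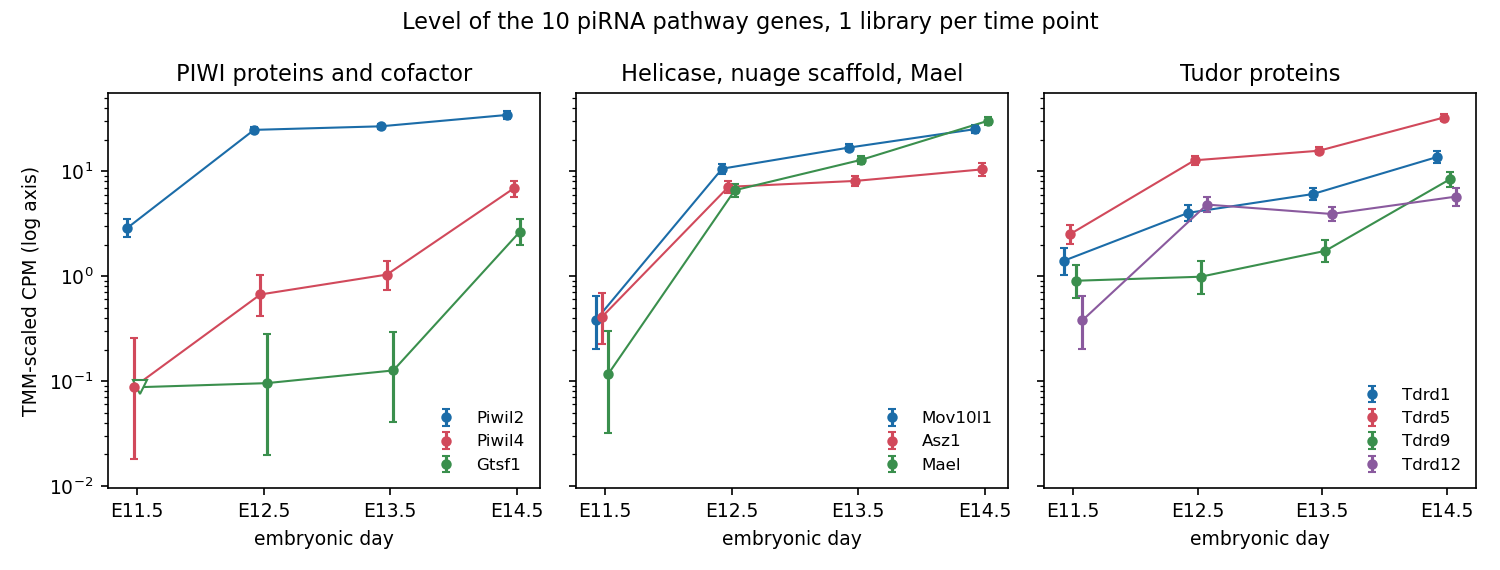
TMM-scaled CPM (log axis) of the 10 genes at the 4 embryonic days, 1 library each, with exact Poisson 95% intervals of the counts; the open triangle puts Gtsf1, with 0 counts at E11.5, at the floor of 3 counts (0.0876 scaled CPM), just under the upper end of its exact interval (0.108). All but Tdrd9 and Gtsf1 rise at E12.5, and Piwil4, Gtsf1, Tdrd9, Mael, Tdrd1 and Tdrd5 rise at E14.5.

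Mov10l1 encodes the RNA helicase that binds piRNA precursors and feeds them to processing. Its counts were 13, 332, 665 and 475, or 0.380, 10.6, 16.8 and 25.2 scaled CPM. The rise at E12.5 was 27.6-fold (log2 4.79, 4.01 to 5.73), followed by 0.66 (0.47 to 0.86) and 0.60 (0.43 to 0.78) on the log2 scale. From E12.5 to E14.5, dissected alike, it rose 2.40-fold.

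Asz1 encodes GASZ, a scaffold on the outer mitochondrial membrane that holds nuage together. It had 14, 223, 320 and 196 counts, or 0.409, 7.11, 8.09 and 10.4 scaled CPM. Asz1 rose 17.3-fold at E12.5 (log2 4.11, 3.34 to 5.02), and then had log2 fold changes of 0.18 (−0.07 to 0.44) and 0.38 (0.12 to 0.64). From E12.5 on its course was close to that of Piwil2, with 28.7, 30.2 and 30.2 Asz1 counts per 100 Piwil2 counts in the 3 libraries. At E11.5 the ratio was 14.1 (7.46 to 24.9), with an interval that just overlaps that at E12.5 (24.6 to 33.3).

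Mael encodes an HMG-box protein of nuage that is needed for transposon silencing. It went from 4 counts at E11.5 to 207, 509 and 570, or from 0.117 to 6.60, 12.9 and 30.3 scaled CPM. The 54.8-fold rise at E12.5 (log2 5.78, 4.44 to 7.71) was the largest of the 10 genes and the 34th largest of 19215 tested. At E13.5 it was 1.95-fold higher (1.65 to 2.30; log2 0.96) after TMM scaling, just under 2-fold, and past it in TPM (log2 1.09). At E14.5 it rose 2.38-fold (log2 1.25, 1.08 to 1.43). Mael, Mov10l1, Tdrd1 and Tdrd5 were the members whose interval lay above 0 in each of the 3 steps.

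The Tudor protein genes did not share a course. Tdrd1 encodes a partner of MILI, and had 48, 126, 240 and 258 counts, or 1.40, 4.02, 6.07 and 13.7 scaled CPM. Its log2 fold changes were 1.52 (1.03 to 2.03), 0.59 (0.28 to 0.92) and 1.19 (0.93 to 1.45), so that it rose at E12.5 and at E14.5. Tdrd5, a protein of nuage and intermitochondrial cement, followed it closely. Its 86, 399, 621 and 612 counts, or 2.51, 12.7, 15.7 and 32.5 scaled CPM, gave log2 fold changes of 2.34, 0.30 (0.12 to 0.49) and 1.07 (0.91 to 1.23), the first of them 5.06-fold (4.01 to 6.48). The profiles of Tdrd1 and Tdrd5, centred on their means, differed by a root mean square of 0.30 on the log2 scale over the 4 libraries.

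Tdrd9 encodes a DEAH-box helicase with a Tudor domain that works with MIWI2. It had 31, 31, 69 and 158 counts, or 0.905, 0.989, 1.74 and 8.40 scaled CPM. The log2 fold change was 0.13 (−0.64 to 0.89) at E12.5, where most members rose, 0.81 (0.19 to 1.48) at E13.5 and 2.28 (1.87 to 2.71) at E14.5. Tdrd12, a helicase-like Tudor protein needed for the piRNAs that load MIWI2, had its step earlier. It had 13, 151, 155 and 108 counts, or 0.380, 4.82, 3.92 and 5.74 scaled CPM, with log2 fold changes of 3.65 (2.85 to 4.61), −0.30 (−0.63 to 0.03) and 0.57 (0.20 to 0.93). Tdrd12 and Piwil2 had the most similar profiles of the 36 pairs among the 9 members with counts in all libraries (root mean square 0.21), and Tdrd9 and Mael the least (2.39).

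**Figure D2:**
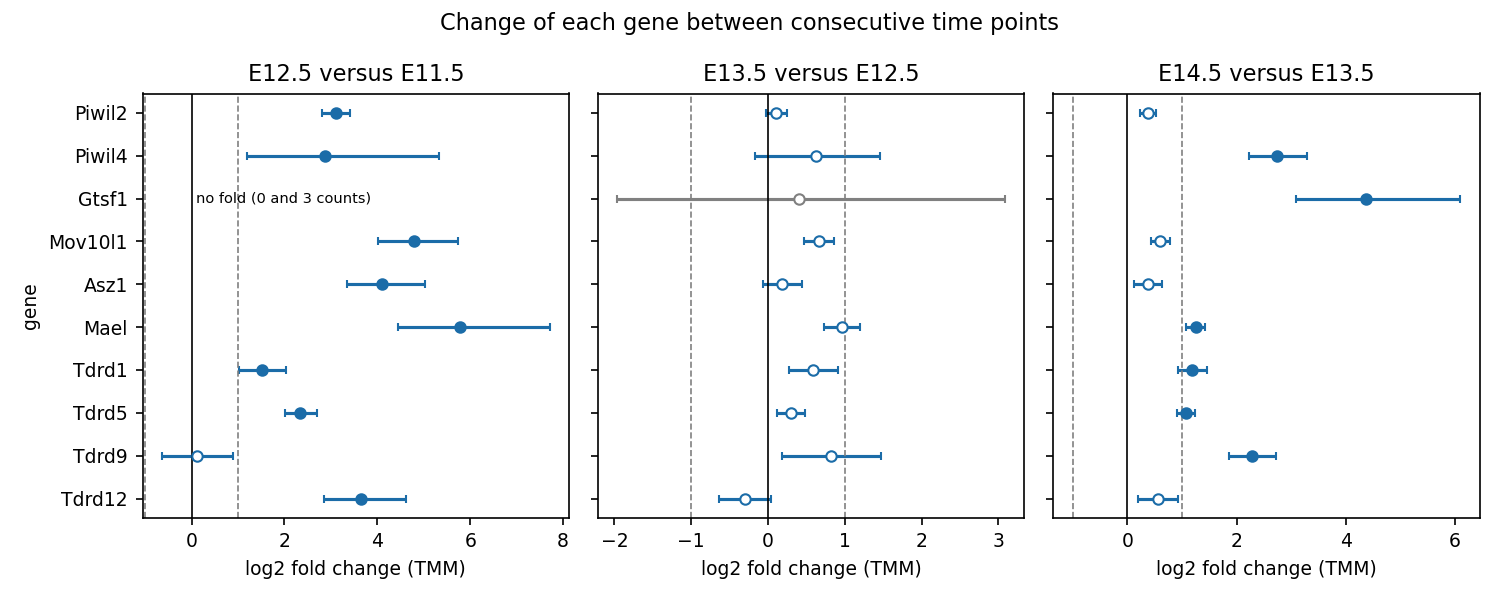
Log2 fold change of each gene in the 3 consecutive comparisons after TMM scaling, with exact Clopper-Pearson 95% intervals; filled points reach 2-fold (dashed lines), open points do not, and grey marks a gene below the filter. Points reach 2-fold for 8, 0 and 6 genes from left to right.

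Counted together, 8 of the 9 genes tested rose at E12.5 and 0 fell, with a median log2 fold change of 3.10 where the median over all genes was 0.00. Over all genes tested, 8.64% rose and 9.11% fell in this step. At E13.5, 0 of 9 reached 2-fold in either direction and the median was 0.59. Only 3.28% of all genes tested rose and 1.98% fell there, so 0 of 9 lies near these shares. This step uses neither the library with mesonephros nor that of E14.5. In it 5 of the 10 members had an interval above 0 and 0 had one below. These intervals cover counting error only, and the share over all genes was not counted, so no result is read from this number. At E14.5, 6 of 10 rose and 0 fell, beside 6.44% and 2.51% of all genes tested, and the median of the members was 1.13. At total counts 3 were at least 2-fold higher and 0 lower, and in TPM 2 were higher (Gtsf1 and Piwil4) and 4 lower (Piwil2, Asz1, Mov10l1 and Tdrd12). On these scales the median gene lay at −1.07 and −1.63, so most genes tested were at least 2-fold lower there. From E12.5 to E14.5, both without mesonephros, 7 of 10 rose and 0 fell, and the median was 1.57. Over all genes tested, 8.44% rose and 3.33% fell. TPM gave 3 members higher and 2 lower, with the median gene at −1.49. In that span Gtsf1 rose 26.7-fold from 3 counts (log2 4.74, 3.18 to 7.13), Piwil4 10.3-fold (3.36, 2.69 to 4.11), Tdrd9 8.52-fold (3.09, 2.54 to 3.70) and Mael 4.62-fold (2.21, 1.98 to 2.45). Piwil2, Asz1 and Tdrd12 had log2 fold changes of 0.48, 0.56 and 0.26.

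The changes at E14.5 depend on the scale for the members that moved least. Raw counts were higher at E14.5 than at E13.5 for 5 members and lower for 5, namely Piwil2, Asz1, Mov10l1, Tdrd12 and Tdrd5. In TPM, Gtsf1, Piwil4 and Tdrd9 were higher, with log2 ratios of 2.77, 1.11 and 0.65, and the other 7 were lower, down to −1.26 for Piwil2. The TPM of the median gene changed more, by −1.63. The scales differ by nearly the same shift for every gene, so the order of the genes is the same on each and only the place of 0 moves.

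**Figure D3:**
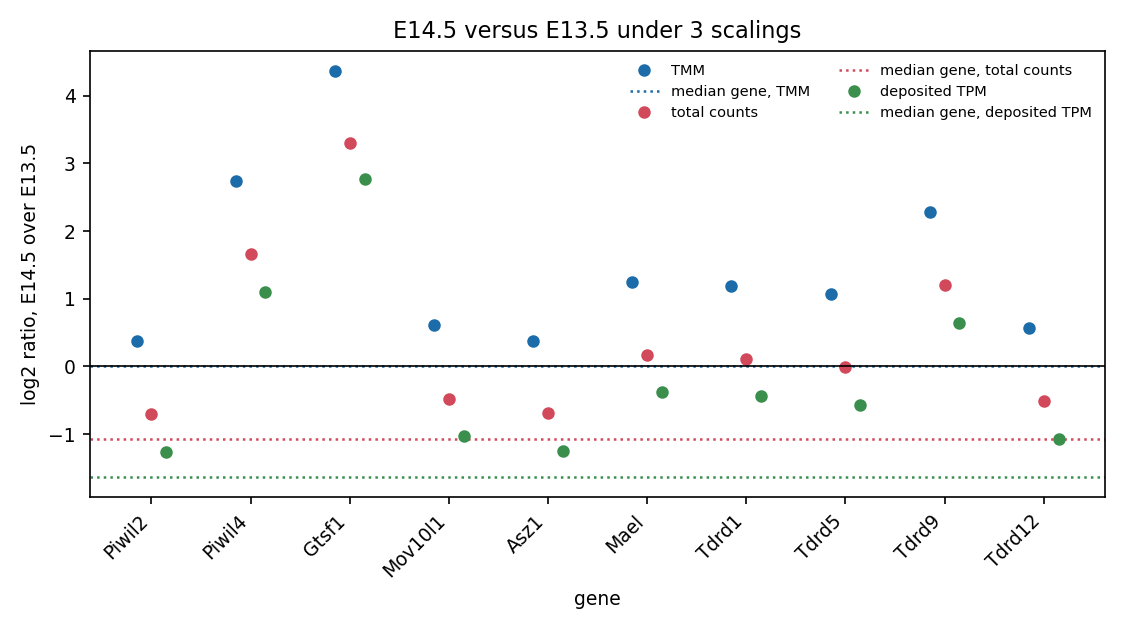
Log2 ratio of E14.5 over E13.5 for the 10 genes by TMM scaling, by share of total counts and by deposited TPM; dotted lines give the median tested gene on each scale, at 0.01, −1.07 and −1.63. The scales differ by a nearly constant shift, and Gtsf1, Piwil4 and Tdrd9 lie above 0 on all of them.

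Ratios of counts within a library do not depend on the scaling between libraries. Per 100 Piwil2 counts, Piwil4 had 3.03 counts in the first library (exact 95% interval 0.614 to 9.12), then 2.70 (1.66 to 4.16) and 3.86 (2.76 to 5.28), and 19.9 in the last (16.35 to 24.1). The E14.5 interval lay above the other 3. Gtsf1 went from 0.471 per 100 Piwil2 counts at E13.5 (0.153 to 1.10) to 7.72 (5.67 to 10.3), and Tdrd9 from 6.50 (5.02 to 8.30) to 24.4 (20.4 to 29.1). Mael reached 26.6 at E12.5 (22.7 to 31.1), then 48.0 (43.1 to 53.4) and 88.0 (78.5 to 98.6), with no overlap between these intervals. Between E11.5 and E12.5, Tdrd9, Tdrd1 and Tdrd5 were lower relative to Piwil2, Mael and Mov10l1 were higher, and the intervals of Tdrd12, Asz1, Piwil4 and Gtsf1 overlapped. Tdrd9 had 31.3 counts per 100 Piwil2 counts at E11.5 (20.2 to 47.3) against 3.98 at E12.5 (2.69 to 5.70), and Tdrd1 48.5 (33.6 to 69.1) against 16.2 (13.3 to 19.6).

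**Figure D4:**
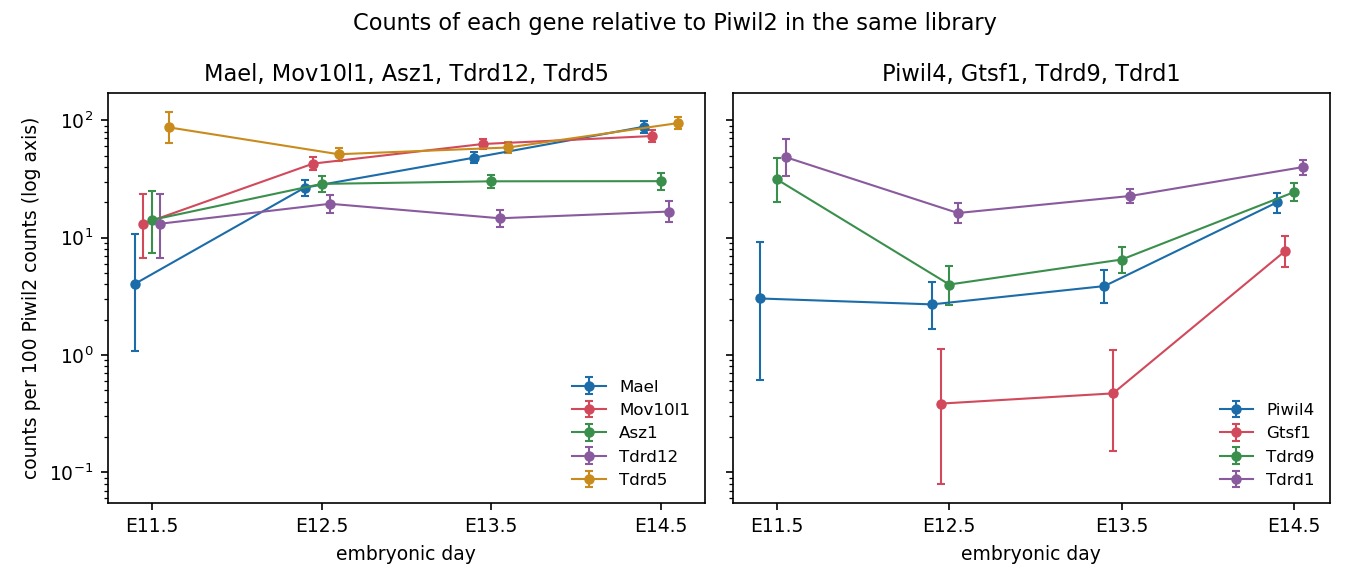
Counts of each gene per 100 counts of Piwil2 in the same library (log axis) with exact binomial 95% intervals, for 5 genes on the left and 4 on the right; Gtsf1 had 0 counts at E11.5 and is not drawn there. Among the libraries from E12.5 on, Piwil4, Gtsf1, Tdrd9, Mael, Tdrd1 and Tdrd5 are highest relative to Piwil2 at E14.5, with separate intervals. Mov10l1 is highest there too, with an interval that overlaps that of E13.5, and Asz1 stays near 30 from E12.5 on.

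Per exon length the order of the members changed with time. At E11.5 all 10 were under 1 TPM, led by Tdrd5 (0.715) and Piwil2 (0.699), whose counting intervals overlap, and summed to 3.02 TPM. At E12.5 the sum was 38.8 TPM, with Mael (8.03), Piwil2 (7.31) and Asz1 (6.63) on top and overlapping intervals between neighbours. Mael stood clear of the others at E13.5, with 17.1 TPM (15.7 to 18.7) against 8.65 for Piwil2 (8.14 to 9.19), and at E14.5, with 13.1 (12.1 to 14.2) against 4.02 for Tdrd5 (3.71 to 4.36). Mael then made up 36.4% of the summed TPM of the members, after 30.2% at E13.5. Tdrd5, Mov10l1, Piwil2 and Asz1 followed each other at E14.5 with overlapping intervals, from 4.02 to 3.46 TPM. Gtsf1, Tdrd1, Piwil4 and Tdrd9 were lowest, at 1.71, 1.60, 1.10 and 1.07 TPM, and the only gap between neighbours among them was that of Tdrd1 above Piwil4.

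Of 26 further genes of the pathway, 24 were listed in the files, Btbd18 under its synonym Gm13718. At E12.5, 12 of 20 tested rose and 0 fell, with a median log2 fold change of 1.53, and the largest rises with at least 100 counts were those of Stk31 (4.95), Ddx4 (4.28), Gpat2 (4.14) and Fkbp6 (3.31). Ddx4, the mouse VASA helicase of nuage, went from 97 to 1726 counts. At E13.5, 2 of 21 rose and 1 fell, beside 3.28% and 1.98% of all genes tested, with a median of 0.32. Those that rose were Piwil1 (1.03, from 12 to 31 counts) and Gm13718 (1.78). Gtsf1l fell by 1.16 on the log2 scale, from 16 to 9 counts, with an interval that includes 0. Piwil1, the PIWI protein of meiotic and postmeiotic male germ cells, stayed at or below 33 counts in all 4 libraries.

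At E14.5 against E13.5, 8 of 22 of these genes rose and 0 fell, and the median was 0.46. At total counts the split was 4 higher and 4 lower, and in TPM 3 higher and 13 lower. The median gene lay at −1.07 and −1.63 on these scales, so most genes tested were at least 2-fold lower there. Morc1, a GHKL ATPase needed for transposon silencing in male germ cells, rose from 98 to 160 counts (log2 1.80, 1.43 to 2.17). Tex15, which acts with MIWI2 in transposon methylation, went from 2485 to 2559 counts (1.13, 1.05 to 1.21). The others that rose were Gm13718, Piwil1, Henmt1 (5 to 12 counts), Spocd1, Nanos2 and Dnmt3l. Spocd1, a nuclear partner of MIWI2, had 2, 9, 6 and 48 counts. Nanos2, an RNA-binding protein of fetal male germ cells, had 0, 0, 12 and 75, and Dnmt3l, the cofactor of de novo DNA methylation, 0, 0, 2 and 29. The last 3 stand below 100 counts in all libraries and were named after their values were seen. Like Gtsf1, Piwil4, Tdrd9, Mael and Tdrd1, these 3 were highest in the last library in counts. Ddx4 was not among the genes that rose, with 2960 and 1176 counts (log2 −0.24).

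Markers of germ cells give the setting of these values. The list of 13 markers (Dazl, Pou5f1, Dppa3, Dppa5a, Sall4, Tfap2c, Prdm1, Prdm14, Nanos3, Dnd1, Kit, Sox2 and Nanog) had 11 genes that rose at E12.5 and 0 that fell, with a median log2 fold change of 2.41, and its summed level went from 109.6 to 533.2 scaled CPM. Dazl, an RNA-binding protein of germ cells, rose from 53 to 4555 counts, Pou5f1 (OCT4), a pluripotency factor, from 138 to 1058, Dppa3 from 106 to 1062 and Dppa5a from 209 to 1630. Most members of the piRNA pathway rose in this step too, but not in proportion to the germ cell markers. Relative to the summed counts of the markers, Mael (11.6-fold), Mov10l1 (5.73), Asz1 (3.58), Tdrd12 (2.61) and Piwil2 (1.76) were higher at E12.5. Tdrd1 (0.589-fold) and Tdrd9 (0.225-fold) were lower, and the intervals of Tdrd5, Piwil4 and Gtsf1 overlapped. The changes of single markers ran from −0.50 to 6.55 on the log2 scale, the largest above the 5.78 of Mael. These ratios therefore depend on which markers make up most of the sum. Sertoli and Leydig cell lists also rose, with median log2 fold changes of 3.02 and 3.19. Mesonephros markers moved the other way, with 7 of 10 at least 2-fold lower. Their summed level was 280.9 scaled CPM at E11.5 and 119.6 at E12.5. The part of the dissection in the rise of the members was not tested.

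At E14.5 the summed levels of the germ cell markers and of the members moved in opposite directions. The summed germ cell markers were at 547.7 scaled CPM at E13.5 and 379.3 at E14.5, with 0 of 13 risen and 3 fallen at E14.5 (Tfap2c by 2.32, Prdm14 by 1.46 and Nanog by 1.07 on the log2 scale). The summed members were at 93.2 and 170.3 scaled CPM in the same libraries. Against E12.5, 7 of the 13 markers had fallen at E14.5 (Dppa5a, Sall4, Tfap2c, Prdm1, Prdm14, Sox2 and Nanog) and 0 had risen. For the markers too, germ cell number and RNA per germ cell cannot be told apart, so their sum is not a count of germ cells. Per 100 counts of Ddx4, each of the 10 members was higher at E14.5 than at E13.5, with intervals that do not overlap. Ddx4 itself (2960 and 1176 counts) was slightly lower at E14.5 after TMM scaling, so the median gene was also higher relative to Ddx4. The share of all genes higher relative to Ddx4 was not counted. Mael went from 17.2 (15.6 to 18.9) to 48.5 (43.8 to 53.6), Piwil2 from 35.8 (33.4 to 38.5) to 55.1 (49.99 to 60.7), Piwil4 from 1.39 (0.992 to 1.88) to 10.97 (9.07 to 13.2) and Tdrd12 from 5.24 (4.43 to 6.16) to 9.18 (7.47 to 11.2). At E13.5 against E12.5, 1 member was higher by this measure (Mael), 2 were lower (Piwil2 and Tdrd12) and 7 had overlapping intervals. In the first step, E12.5 against E11.5, none was higher relative to Ddx4. There 4 were lower (Tdrd1, Tdrd5, Tdrd9 and Piwil2) and 6 had overlapping intervals.

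Meiosis genes, which female germ cells switch on in this window, had 8 of 13 tested that rose in the first step, then 9 of 15 and 6 of 15, and 0 fell. At E13.5, Stra8, the retinoic acid target that starts meiosis, went from 3 to 430 counts. In that step Gm1564 (Meioc) went from 27 to 496 and Sycp1, a synaptonemal complex gene, from 121 to 698. At E14.5 the largest rise with at least 100 counts was that of Stag3, a meiotic cohesin subunit, from 2581 to 10590 counts (log2 3.13). Sertoli cell markers had 8 of 10 risen at E12.5 and 0 of 10 at E14.5, where their median log2 fold change was 0.10. For pregranulosa markers the numbers were 5 of 10 and 0 of 10, with 1 fallen (Bmp2) and a median of −0.48 at E14.5. Of the other lists at E14.5 against E13.5, Leydig cell genes had 0 of 8 risen, endothelial genes 0 of 8, macrophage genes 1 of 8, mesonephros genes 3 of 9 and erythroid genes 0 of 10, of which 3 fell. At E12.5, Leydig cell genes had 8 of 8 risen, endothelial genes 0 of 8, macrophage genes 0 of 8 with all 8 fallen, and erythroid genes 4 of 10 with 1 fallen. Over all genes tested, 8.64% rose and 9.11% fell at E12.5, and 6.44% and 2.51% at E14.5. Lists with 0 or 1 gene risen are thus near the share over all genes. In order of time the summed levels were 119.97, 752.9, 684.8 and 710.3 scaled CPM for Sertoli markers and 240.4, 369.8, 467.0 and 349.9 for pregranulosa markers, and no marker of either list was at 0. Whether these cell types have a part in the levels of the members was not tested.

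**Figure D5:**
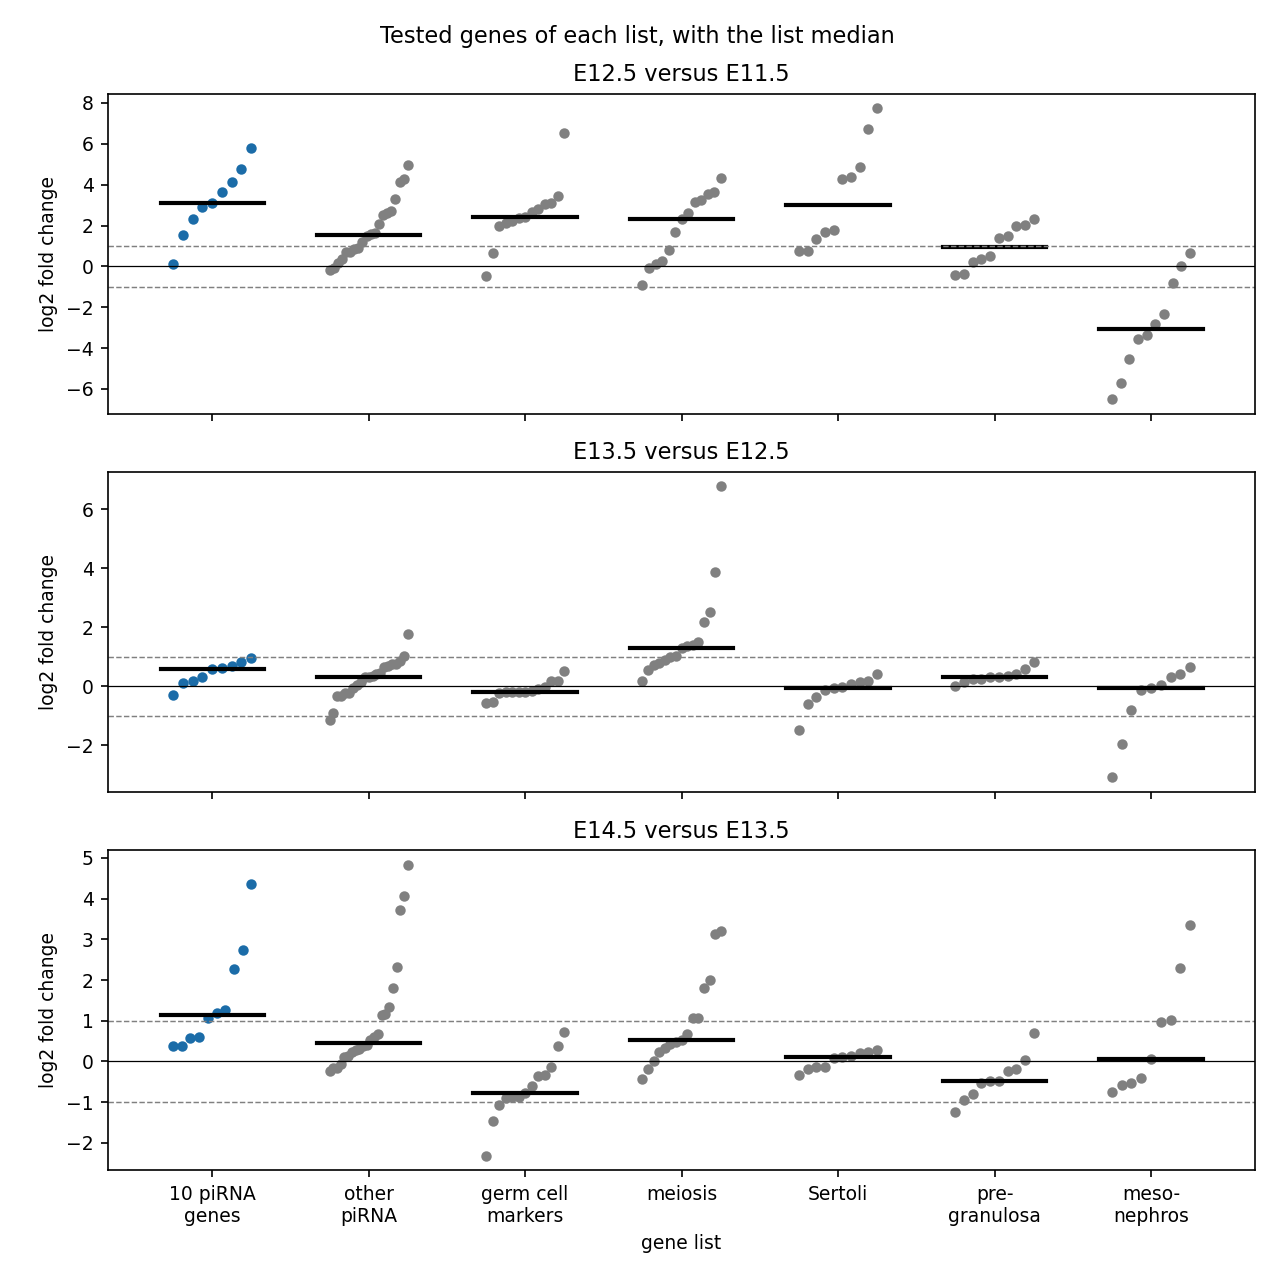
Log2 fold change after TMM scaling of each tested gene (points, sorted within a list) and list median (bars) for the 10 piRNA pathway genes, in blue, and 6 other lists, in grey, in the consecutive comparisons; dashed lines mark 2-fold. The median of the 10 genes is 3.10, 0.59 and 1.13, and that of the germ cell markers 2.41, −0.19 and −0.78.

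Among 11565 genes outside all lists with at least 100 counts in every library, those whose centred log2 profile lay nearest to the median profile of the members were Mro (root mean square difference 0.21), Igfbp7 (0.21), Trim47 (0.29), Adamts2 (0.32) and Rtn4rl1 (0.32). Mro had 3.30, 28.1, 30.6 and 43.8 scaled CPM in order of time. The members' median profile was −2.74, 0.63, 0.63 and 1.56 around its mean over the 4 libraries, so likeness over so few points rests mostly on the step from E11.5 to E12.5.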

How the data were processed

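Total RNA from mixed XX and XY gonads was sequenced at 4 time points, and libraries were assigned to time points by their titles, 1 per time point. The authors depleted rRNA, built stranded libraries, used STAR for alignment (mm10), UMI-tools for deduplication and featureCounts for counting. The deposited counts are these deduplicated counts, and the deposited TPM were made by the authors from counts and exon length. Versions and annotation release are not given in the sources used here.

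Genes kept by filterByExpr for a pair were scaled by TMM in edgeR 4.0.16 (R 4.3.3). Log2 fold changes used a prior count of 0.125, and a call is a change of at least 2-fold. Without replicates the calls rest on fold size alone, and no p-value is given. The procedure was tested on simulated data with counting error only. These data had no spread between pools and no shift of the median gene like that at E14.5, so the test bears on neither. Intervals were computed in Python 3.11.15 with scipy 1.17.1, and figures with matplotlib 3.10.9. Promoter windows come from RefSeq (GRCm38.p6).

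Alternatives were DESeq2 1.42.0 size factors, total counts with and without the 10 most abundant genes, TMM over all libraries, TPM ratios, other filters, a prior count of 2, at least 4-fold, and edgeR's exact test at a preset variability that was not estimated from these data. All members are named. Of the other pathway, germ cell and meiosis genes, the rule names the 4 with the largest change among those with at least 100 counts, and Ddx4, Dazl, Pou5f1 and Piwil1. Other genes named from these lists were picked with their values known. The members and lists were chosen with earlier results of these data known.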

Additional observations from a re-analysis of the deposited data

How the results depend on the processing

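No paired analysis was possible because each time point is 1 library and the labels give no replicate numbers. DESeq2 size factors, TMM over all 4 libraries, no filter and total counts without the 10 most abundant genes kept all 12 summary results within 1.5 times the count or within the counting interval of the median. At total counts, 3 members were called at E14.5 against E13.5 and 4 at E14.5 against E12.5, with medians of 0.052 and 0.52. In TPM, the median at E14.5 against E13.5 reversed to −0.51 and that against E12.5 was 0.073, 1 member was called at E13.5, and 16 other pathway genes were called at E14.5, 3 higher and 13 lower. Members that rose and reversed in TPM at E14.5 against E13.5 were Mael (−0.38), Tdrd1 (−0.44) and Tdrd5 (−0.57, and −0.011 at total counts), and against E12.5 Tdrd5 (−0.14) and Mov10l1 (−0.24). The median gene itself lay at −1.07 (total counts) and −1.63 (TPM) against E13.5 and at −1.04 and −1.49 against E12.5, and the cause was not tested.

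With edgeR's exact test, 2-fold and FDR at most 0.05, a preset biological coefficient of variation of 0.2 called 3 members at E14.5 against E13.5. At 0.4 it called 5 at E12.5, 0 at E14.5 against E13.5 and 1 against E12.5. For the other pathway genes, 1 was called at E13.5 at 0.1, 0 at E13.5 and 4 at E14.5 at 0.2, and at 0.4 the numbers were 4, 0 and 0 in the consecutive comparisons and 2 against E12.5. At least 4-fold left 3 members at E14.5 against E13.5 and 4 against E12.5, and 0, 4 and 5 other pathway genes at E13.5, E14.5 and E14.5 against E12.5. At least 10 counts in both libraries left 5 and 7 of these at E14.5, and a prior count of 2 left 1 at E13.5. Gtsf1, with at most 5 counts before E14.5, and Piwil4, with 3 at E11.5, are limited by depth. Leaving out a library leaves no comparison for its time point.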
